A study of Bos taurus with 18 samples.

Results

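The transcripts described here belong to the p53 response and to the BCL2 family of cell death regulators in day 7 bovine blastocysts. The members were 7 genes, CDKN1A, MDM2, BAX, BAK1, BCL2, BCL2L1 and MCL1, and every probe set listed for 1 of them alone was taken, which gave 11 of 24016 tested probe sets. All 7 genes, of 9155 with a probe set of their own, were thus found. BCL2 had 5 probe sets and each other member had 1. All 7 genes lie on autosomes, with CDKN1A and BAK1 both on chromosome 23.

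Blastocysts of mixed breed were produced in vitro with sex-sorted semen of 3 bulls and snap frozen on day 7 after insemination. On each of 18 Affymetrix bovine arrays, 60 pooled blastocysts of 1 labelled sex and 1 bull were measured, with 3 arrays in each of the 6 groups (females and males of bull 1, of bull 2 and of bull 3). There was no treated group, each bull is a single sire, and a pool averages over its embryos. Whether pools of 1 group stem from different fertilisation runs is not stated in the labels, so the p-values here reflect spread between pools, which may be technical.

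p53 is a transcription factor that accumulates when DNA is damaged or cells are stressed. It switches on CDKN1A (p21), which stops cyclin-dependent kinases, BAX, which helps to kill the cell, and MDM2, a ubiquitin ligase that returns p53 itself to degradation. BAX and BAK1 are the effectors that open the outer mitochondrial membrane, and BCL2, BCL2L1 (BCL-xL) and MCL1 are the guardians that hold them in check. Some cells of a blastocyst normally die by apoptosis, and the balance of these proteins helps to decide which.

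The values are log2 expression values, in which a difference of 1 is a 2-fold difference, and brightness cannot be compared between probe sets as an amount of RNA. Array medians lay between 5.33 and 5.49, and precision depends on the number of arrays and on the spread of each probe set between them. XIST, the RNA of the inactive X chromosome, ran from 8.87 to 9.57 in arrays labelled female and from 5.93 to 7.28 in those labelled male. Of the markers of the blastocyst's own lineages, KRT18 of the trophectoderm averaged 14.04 in both sexes and POU5F1 of the inner cell mass 11.93 in both. These 2 were bright ones. The 4 measured of 8 trophectoderm markers had means from 5.77 to 14.04, and the 4 measured of 6 inner cell mass markers from 5.36 to 11.93. Of the 4 measured markers of each lineage 1 passed for sex, IFNT2 of the trophectoderm, 1.5-fold higher in females (0.59 log2, adjusted p = 0.000678 in limma), and SPP1 of the inner cell mass list, 1.48-fold higher in females (0.56, adjusted p = 0.0144, not passing in 3 of 33 alternatives). The part of these lineage markers in the differences of the members was not tested. Fewer cells of a type and less RNA per cell cannot be told apart in pooled RNA.

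Between the sexes, CDKN1A and BAK1 were higher in females, MDM2, MCL1 and the brightest BCL2 probe set were higher in males, and BAX, BCL2L1 and the other 4 BCL2 probe sets did not pass the test. The count was thus 5 of 11 probe sets, 2 higher in females and 3 higher in males, at an adjusted p under 0.05 in limma. Over the whole array 15.6% of probe sets passed, 8.12% higher in females and 7.47% higher in males. Among the brighter 50% of probe sets, tested alone, 3572 of 12008 passed. All member probe sets but those of MDM2 and the dimmest of BCL2 were in that brighter part. The part of brightness in the member count was not tested. The median difference of females minus males was -0.06 log2 over the 11 probe sets and -0.03 over all. In no member did the 9 female and 9 male arrays separate without overlap, as they did at 2.92% of all probe sets.

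**Figure D1:**
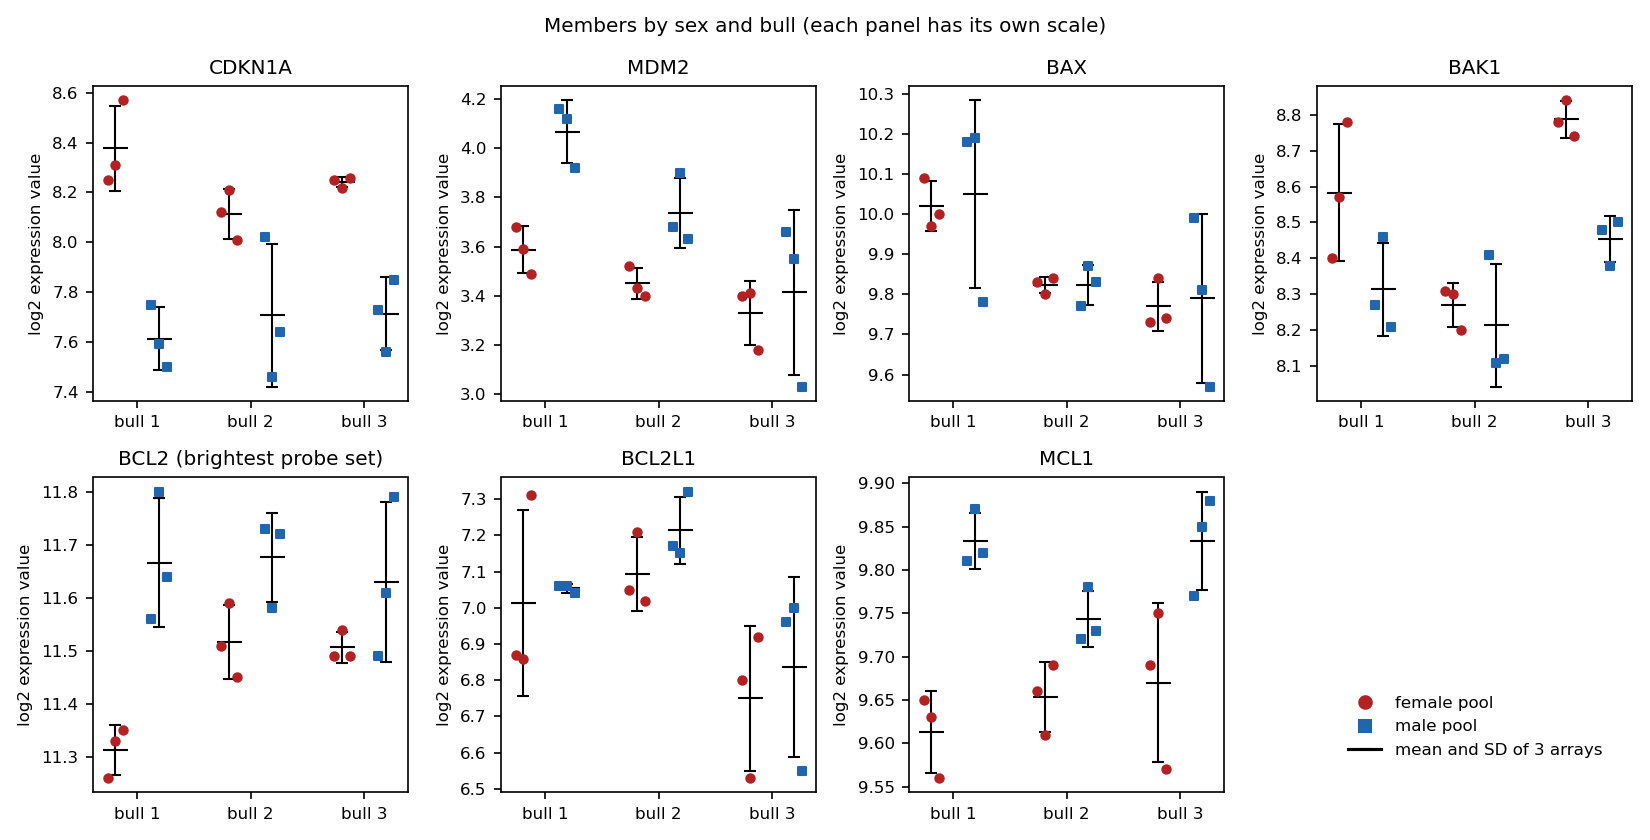
Log2 expression values of the 7 members (vertical axes, each with its own range) in every array, by bull (horizontal axis) and sex, with the mean and SD of the 3 arrays of a group. CDKN1A has the higher female mean in each bull, with 1 male array of bull 2 among the female ones, MCL1 has every male array above the female arrays of its bull, and MDM2 is lower in bull 3 than in bull 1 while BAX shows no gap between the sexes.

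CDKN1A, the cyclin-dependent kinase inhibitor p21, had the widest sex difference of the members. Female pools gave 8.25, 8.31 and 8.57 for bull 1, then 8.12, 8.21 and 8.01 for bull 2, and 8.25, 8.22 and 8.26 for bull 3. Male pools gave 7.75, 7.59 and 7.50, then 8.02, 7.46 and 7.64, and 7.73, 7.56 and 7.85. Among the 9 female arrays 8 were above every male array, and the overlap came from the first male array of bull 2, at 8.02, against the lowest female array at 8.01. The means were 8.24 ± 0.15 for the female arrays and 7.68 ± 0.18 for the male ones (SD, n = 9 of each). The difference was 0.57 log2 (SE 0.07, 95% interval 0.41 to 0.72), or 1.48-fold, with an adjusted p of 2.75e-05 in limma. By size it ranked 447 among the 1950 probe sets called higher in females.

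Within single bulls CDKN1A was higher in females by 0.76 log2 in bull 1 (adjusted p = 0.00168) and by 0.53 in bull 3 (adjusted p = 0.023). In bull 2 the difference was 0.41 (95% interval 0.14 to 0.68) and did not pass (adjusted p = 0.107). Over the 18 fits without 1 array it ran from 0.29 to 0.56 (adjusted p from 0.0196 to 0.405). The widest, 0.56, was the only one of them to pass, and it left out the first male array of that bull. That male array was 1 of 4 of wide spread among all 18. The bull 3 call was lost in 5 of 18 fits without 1 array, each an array of bull 3 (every female array and male replicates 1 and 2), with adjusted p from 0.0639 to 0.0892. The test of whether the sex difference differs between bulls did not pass (unadjusted p = 0.17).

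MDM2, the ubiquitin ligase that limits p53, ran the other way from CDKN1A. It was a dim probe set, at the 25.1 percentile of brightness. Its mean of 3.6 log2 lay between the median levels of the blood markers (3.45) and of the cumulus and granulosa markers (4.1). Whether its signal stands above background was not tested, which bears on every value given for MDM2. Female arrays read 3.68, 3.59 and 3.49 for bull 1, then 3.52, 3.43 and 3.40 for bull 2, and 3.40, 3.41 and 3.18 for bull 3. Male arrays read 4.16, 4.12 and 3.92, then 3.68, 3.90 and 3.63, and 3.66, 3.55 and 3.03. The 3 male arrays of bull 1 and 1 of bull 2 were above every female array, while the third male array of bull 3 was below all of them. Means were 3.46 ± 0.14 in females and 3.74 ± 0.35 in males (SD, n = 9). MDM2 was lower in females, with a difference of -0.28 log2 (SE 0.08, 95% interval -0.45 to -0.12, adjusted p = 0.0183 in limma), and 1.22-fold higher in males. The differences were -0.48, -0.29 and -0.08 log2 in bulls 1, 2 and 3, and none of them passed within its bull (adjusted p = 0.0542, 0.345 and 0.865). Without bull 1 the averaged difference was -0.19 (adjusted p = 0.30) and without bull 2 it was -0.28 (adjusted p = 0.136), so that the call needs both. Without the third male array of bull 3 the difference within that bull was -0.27, against -0.08 with it. Over the 18 fits without 1 array it ran from -0.27 to 0.04, and none passed (adjusted p from 0.26 to 0.994).

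Among the effectors, BAX was the flattest member between the sexes. The female arrays lay between 9.73 and 10.09 with a median of 9.84, and the male arrays between 9.57 and 10.19 with a median of 9.83. Both ranges were centred alike. The difference was -0.02 log2, with a 95% interval of -0.16 to 0.12, so that a sex difference of the size seen for CDKN1A lies outside it. The differences within bulls were -0.03, 0.00 and -0.02.

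BAK1, the other effector, was higher in females. Female arrays read 8.40, 8.57 and 8.78 for bull 1, then 8.31, 8.30 and 8.20 for bull 2, and 8.78, 8.84 and 8.74 for bull 3. Male arrays read 8.27, 8.46 and 8.21, then 8.41, 8.11 and 8.12, and 8.48, 8.38 and 8.50. In bull 3 the 3 female arrays were above the 3 male arrays, whereas in bull 2 the highest of the 6 was a male array. Means were 8.55 ± 0.25 in females and 8.33 ± 0.15 in males (SD, n = 9), a difference of 0.22 log2 (SE 0.06, 95% interval 0.09 to 0.35, adjusted p = 0.0223 in limma), or 1.16-fold. Within bulls the differences were 0.27, 0.06 and 0.34, and none passed alone. The averaged call was lost without bull 1 (0.20, adjusted p = 0.0735), without bull 3 (0.16, adjusted p = 0.304), with bull as the replicate (adjusted p = 0.0719) and without the second male array of bull 2 (adjusted p = 0.052).

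MCL1, a guardian with a short-lived protein, was slightly lower in females. Female arrays read 9.65, 9.63 and 9.56 for bull 1, then 9.66, 9.61 and 9.69 for bull 2, and 9.69, 9.75 and 9.57 for bull 3. Male arrays read 9.81, 9.87 and 9.82, then 9.72, 9.78 and 9.73, and 9.77, 9.85 and 9.88. Of the 9 female arrays 8 were below every male array, and the exception was the second female array of bull 3. The means were 9.65 ± 0.06 and 9.80 ± 0.06 (SD, n = 9), a difference of -0.16 log2 (SE 0.05, 95% interval -0.25 to -0.06, adjusted p = 0.0279 in limma), or 1.11-fold in favour of males. Only 11 of the 1793 probe sets called higher in males had a smaller difference. The arrays of MCL1 varied little, with a residual SD of 0.05 log2, against 0.16 for CDKN1A.

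The call of MCL1 depended on the choice of arrays. It was lost without any 1 of the bulls (adjusted p = 0.185, 0.106 and 0.152 without bulls 1, 2 and 3) and when the 4 arrays of wide spread were left out (-0.14, adjusted p = 0.0537). It was also lost with bull as the replicate (adjusted p = 0.141), and without female bull 2 replicate 2, female bull 3 replicate 3 or male bull 2 replicate 2 (adjusted p = 0.0623, 0.0687 and 0.0588). The difference kept its sign in all of these fits, between -0.12 and -0.19 log2.

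BCL2, the founding member of the guardians, was called with 1 of its 5 probe sets. Whether all 5 measure the BCL2 transcript was not tested, which bears on every value given for BCL2. The brightest one read 11.26, 11.33 and 11.35 in female arrays of bull 1, then 11.51, 11.59 and 11.45 for bull 2, and 11.49, 11.54 and 11.49 for bull 3. Male arrays read 11.56, 11.80 and 11.64, then 11.73, 11.58 and 11.72, and 11.49, 11.61 and 11.79. In bull 1 the sexes were apart, in bulls 2 and 3 they met. Means were 11.45 ± 0.11 in females and 11.66 ± 0.11 in males (SD, n = 9), a difference of -0.21 log2 (SE 0.05, 95% interval -0.33 to -0.10, adjusted p = 0.0109 in limma), or 1.16-fold higher in males.

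The second brightest BCL2 probe set averaged 10.20 ± 0.10 in females and 10.26 ± 0.10 in males (SD, n = 9), a difference of -0.06 (95% interval -0.16 to 0.05), and did not pass. Its interval and that of the brightest one overlap, and the difference between the probe sets was not tested. The remaining ones were dimmer. In order of brightness the third differed by -0.04, the fourth by 0.04 and the fifth by -0.15 (95% interval -0.32 to 0.02), and none passed (adjusted p = 0.845, 0.791 and 0.262). Averaged over its 5 probe sets, BCL2 differed by -0.08 log2 (adjusted p = 0.243), so that the call rests on the brightest one. That call was also lost without bull 1 (-0.14, adjusted p = 0.195), without bull 2 (-0.24, adjusted p = 0.0666) and with bull as the replicate (adjusted p = 0.071). Within bull 1 the brightest probe set differed by -0.35 log2 (adjusted p = 0.0392), a call lost in 16 of 28 alternatives, 12 of them fits without 1 array, with adjusted p over all alternatives from 0.00559 to 0.245.

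**Figure D2:**
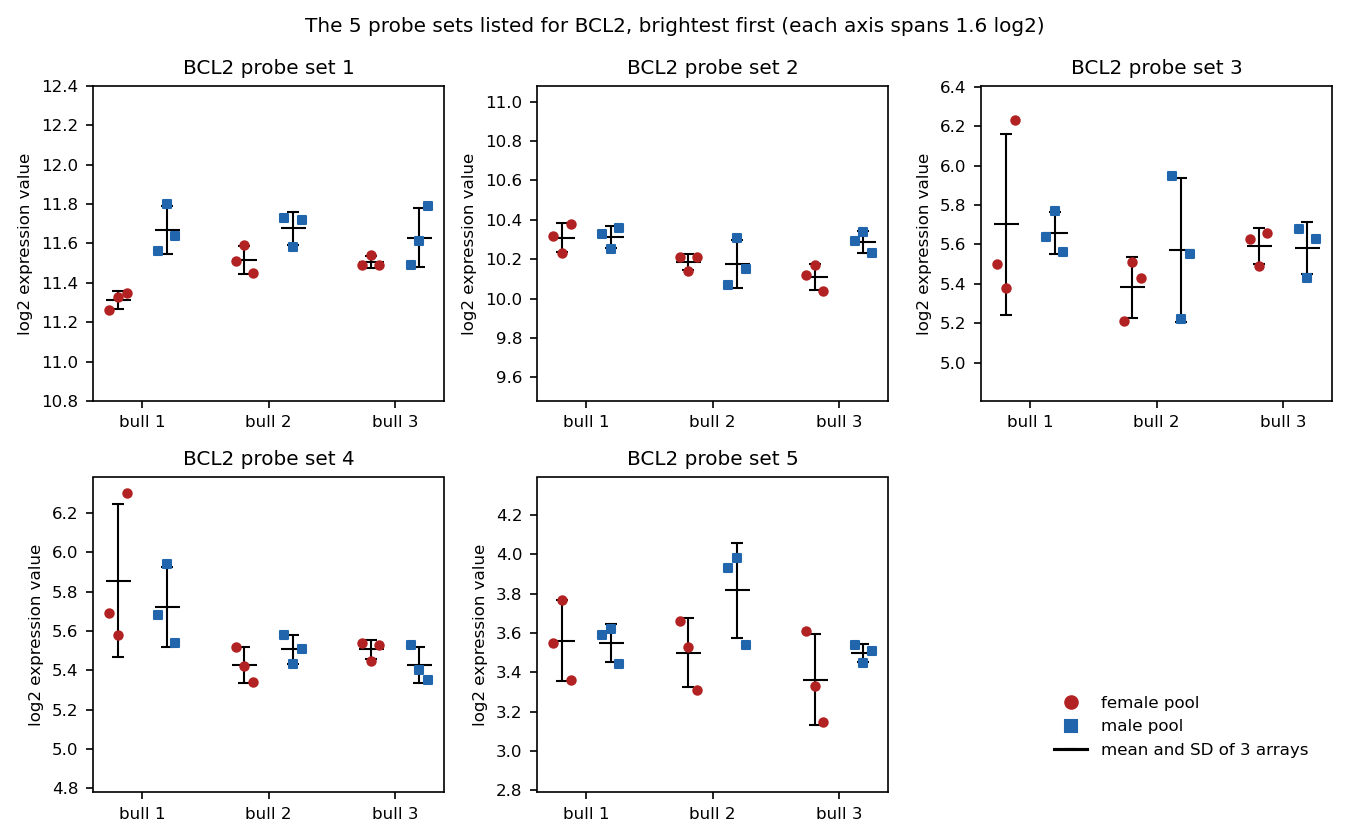
Log2 expression values of the 5 probe sets listed for BCL2 (vertical axes, each spanning 1.6 log2), by bull and sex, with the mean and SD of 3 arrays. The brightest probe set (1) has the female arrays of bull 1 lowest, while in probe sets 3 and 4 a single female array of bull 1 stands high at 6.23 and 6.30.

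BCL2L1, which encodes the guardian BCL-xL, did not pass between the sexes. The female arrays lay between 6.53 and 7.31 with a median of 6.92, and the male arrays between 6.55 and 7.32 with a median of 7.06. The ranges coincided. The difference was -0.08 log2 (95% interval -0.25 to 0.09, adjusted p = 0.578 in limma), and it was -0.04, -0.12 and -0.08 within bulls 1, 2 and 3.

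**Figure D3:**
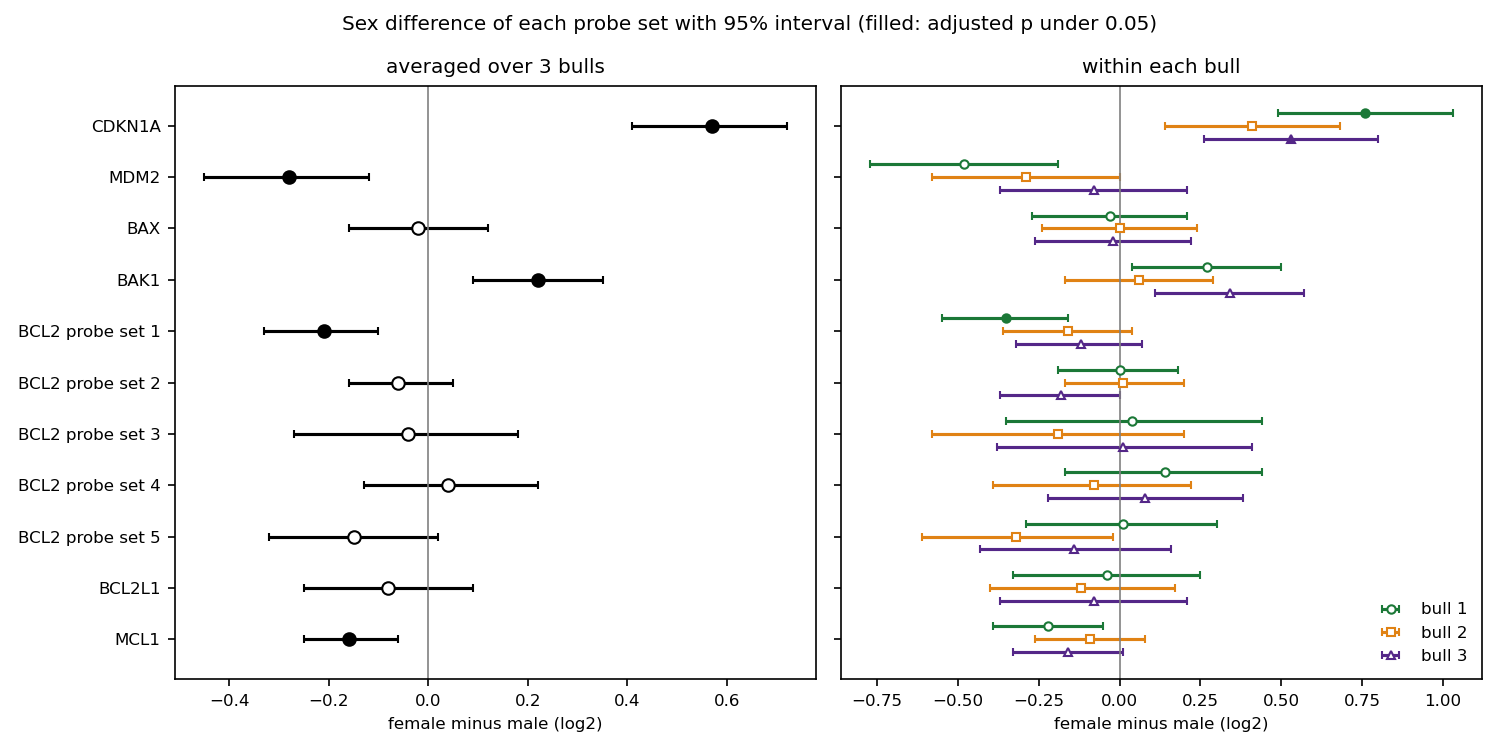
Difference of females minus males in log2 (horizontal axes) for the 11 probe sets, averaged over the bulls (left) and within each bull (right), with 95% intervals and filled symbols at an adjusted p under 0.05. CDKN1A lies at 0.57 and MDM2 at -0.28, BAX and BCL2L1 straddle 0, and only CDKN1A in bulls 1 and 3 and the brightest BCL2 probe set in bull 1 are filled on the right.

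The sex difference was also tested within each bull. In bull 1, 2 of 11 probe sets passed (CDKN1A and the brightest of BCL2), where 4.2% of all probe sets did. In bull 2 it was 0 of 11, where 3.13% passed (at an unadjusted p under 0.05, 3 of 11 and 3418 of all 24016). In bull 3 it was CDKN1A, 1 of 11, where 4.18% passed. Limma's test of a sex difference that differs between bulls called 0 of 11, with 0 at an unadjusted p under 0.05, and 0% of all 24016, of which 656 had an unadjusted p under 0.05. The ordinary linear model without moderation also called 0.

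The gap between an effector and a guardian on the same array was set side by side for both sexes, as a description with no test. BAK1 minus the brightest BCL2 was higher in females by 0.43 log2 (0.62, 0.21 and 0.46 in bulls 1, 2 and 3), and BAK1 minus MCL1 by 0.38 (0.49, 0.14 and 0.50). In each of these 2 gaps 6 of the 9 female arrays were above every male array. In every other pair given below it was 2 or 3 of the 9, with 3 for CDKN1A minus MDM2. The gap of BAK1 over BCL2L1 was 0.30 higher in females. With BAX in place of BAK1 the gaps were narrower, 0.20 over BCL2, 0.14 over MCL1 and 0.06 over BCL2L1. CDKN1A minus MDM2, both targets of p53, was 0.85 log2 higher in females, and 1.24, 0.70 and 0.61 in bulls 1, 2 and 3. This gap rests in part on the dim MDM2 probe set. These gaps combine the differences already given and add no evidence to them.

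**Figure D4:**
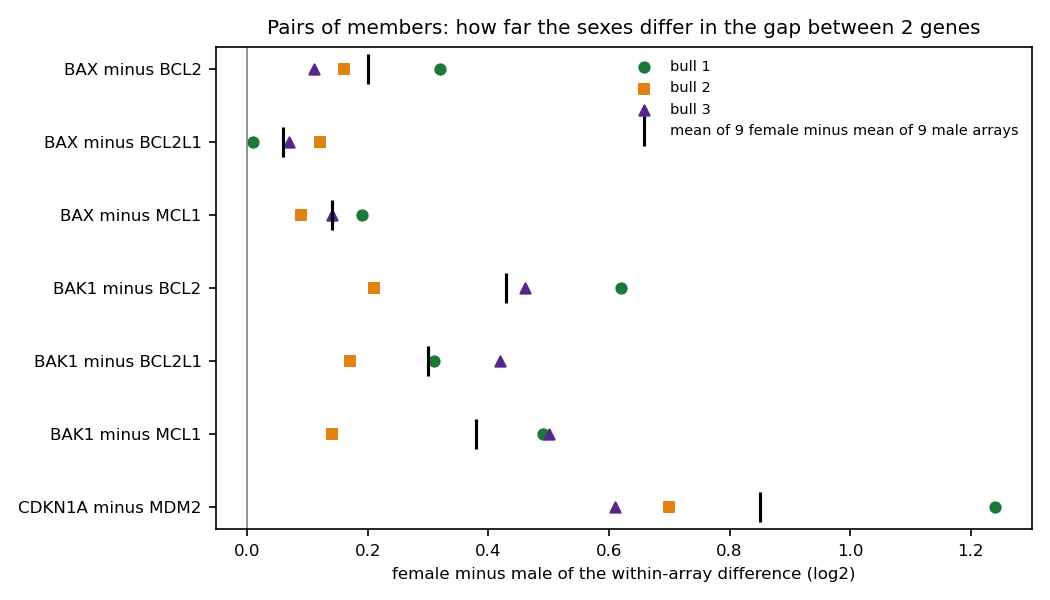
Female minus male difference, in log2 (horizontal axis), of the gap between 2 members on the same array, for 7 pairs (rows), in each bull (symbols) and over all bulls (vertical strokes). Every point lies at or above 0, the gap of CDKN1A over MDM2 is widest at 0.85, and that of BAX over BCL2L1 is narrowest at 0.06.

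The rest of the pathway was read on the brightest probe set of each gene, where 20.8% of 9155 genes passed for sex, 11.5% higher in females and 9.31% higher in males, and the median difference was -0.01 log2. Of 20 other p53 targets measured, 2 were higher in females, 2 in males and 16 did not pass, with a median of 0.01. TRIAP1, a small protein that counters apoptosome formation, was 1.19-fold higher in females (0.25 log2, adjusted p = 0.017), and TP53I3, an oxidoreductase, stood 0.18 higher (adjusted p = 0.0486). XPC, which recognises damaged DNA for excision repair, was 1.27-fold higher in males (-0.34 log2, adjusted p = 0.00773), and POLK, a polymerase that copies past damage, differed by -0.23 (adjusted p = 0.0437). The calls among these targets lay in both directions, as did those over all genes, and whether they share a cause with CDKN1A was not tested. Leaving out 4 arrays of wide spread gave 2 higher in females and 4 in males. TP53I3 lost its call in 26 of 34 alternatives and POLK in 16 of 33 (adjusted p up to 0.311 and 0.24), TRIAP1 in 3 of 34 and XPC in 1 of 34. Of 12 regulators of p53, among them CHEK1, HIPK2 and SIRT1, 0 passed in limma (differences between -0.15 and 0.18 log2), and in the 34 alternatives at most 1 did in either direction.

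Among 9 other BCL2 family genes, 2 passed, both higher in females, with a median of 0.07 log2. BCL2L14 (BCL-G) stood at 6.85 ± 0.35 in females and 6.11 ± 0.34 in males (SD, n = 9), 1.66-fold higher (adjusted p = 0.000933). A second, dimmer probe set of it differed by -0.03 (adjusted p = 0.847). BNIP3L, a receptor for the removal of mitochondria, was 1.2-fold higher in females (0.27 log2, adjusted p = 0.00608) and lost its call without bull 2 and without bull 3. BOK, BAD, BNIP3, BCL2A1, BCL2L2, BCL2L12 and BCL2L15 did not pass.

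Downstream of the mitochondria, 0 of 16 genes of the apoptosome and caspases were higher in females and 2 were higher in males, with a median of 0.02 log2. The 2 called genes encode nucleases that can cut nuclear DNA in dying cells, and over all genes 20.8% passed for sex. DFFB, the caspase-activated DNase, was 1.30-fold higher in males (-0.38 log2, adjusted p = 0.00666) in its brighter probe set, and differed by -0.01 in the other. ENDOG, endonuclease G of mitochondria, was 1.21-fold higher in males (-0.27, adjusted p = 0.0174). DFFB lost its call without bull 3, and ENDOG without bull 1 and without bull 2. APAF1, CASP9, CASP6 and DFFA (-0.12, adjusted p = 0.357) did not pass. Leaving out the 4 arrays of wide spread gave 1 gene higher in females and 4 in males.

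Of 15 G1/S cell cycle genes, the machinery on which p21 acts, CCND2 (cyclin D2) alone passed, 1.22-fold higher in males (-0.29 log2, adjusted p = 0.00124), and the median was 0.00. It lost its call without bull 2. Leaving out the 4 arrays of wide spread gave 1 higher in females and 2 in males. Of 9 partners of the BCL2 family, 2 were higher in each sex. HUWE1, an X-linked ubiquitin ligase that marks MCL1 and p53 for degradation, was 1.36-fold higher in females (0.45 log2, adjusted p = 7.46e-05), and its second probe set also differed by 0.45. BAG3, a co-chaperone that binds BCL2, was 1.34-fold higher in females (0.42, adjusted p = 0.000643). BAG1, another BCL2-binding co-chaperone, and BECN1, the autophagy protein beclin 1, were 1.21-fold and 1.22-fold higher in males (-0.28 each, adjusted p = 0.00122 and 0.00143). These 4 kept their calls in all 34 alternatives, though a second, dimmer probe set of BECN1 differed by -0.1 and did not pass (adjusted p = 0.248).

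**Figure D5:**
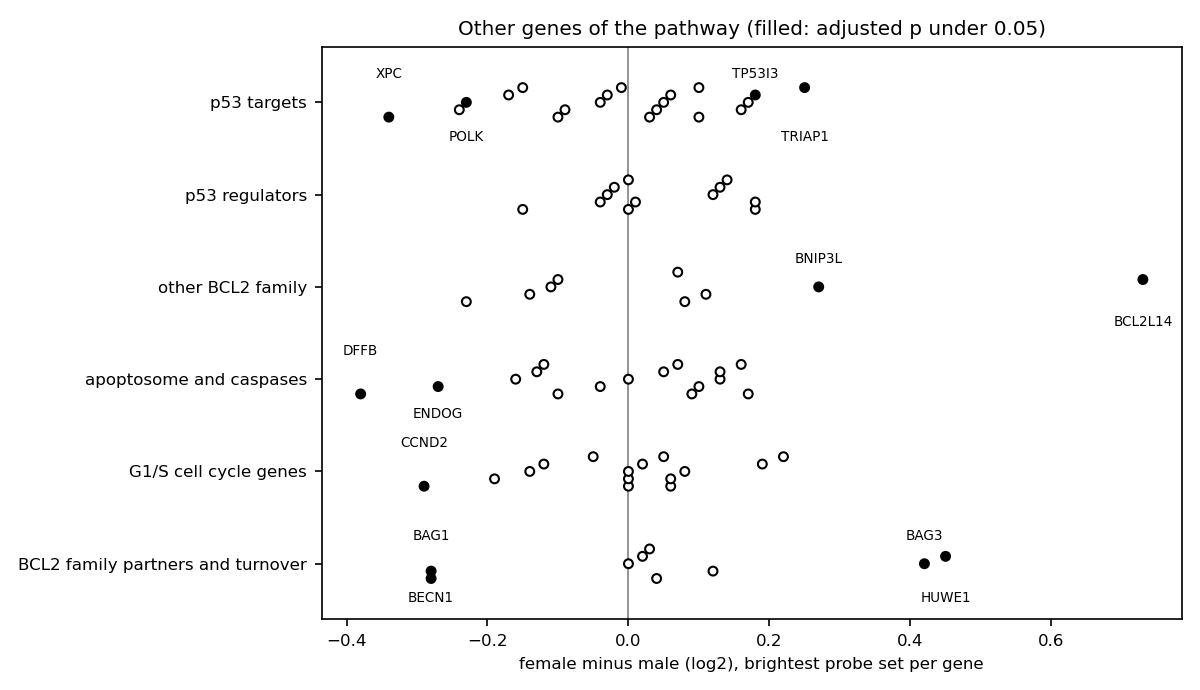
Difference of females minus males in log2 (horizontal axis) for the other pathway genes, 1 point per gene on its brightest probe set, by list (rows; points are spread vertically for legibility), with filled points at an adjusted p under 0.05. Of the p53 targets 2 filled points lie on each side, the p53 regulators have none, and BCL2L14 lies farthest out at 0.73.

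Markers of cells other than the embryo's had median log2 levels of 4.1 (cumulus and granulosa), 3.45 (blood) and 6.13 (sperm). The sums given below weigh the brightest genes of a list most. Of 10 cumulus and granulosa genes, with mean log2 values from 2.42 to 9.9, 2 passed, both higher in females, and their summed linear level ran from 1131 to 1507 in female and from 1177 to 1646 in male arrays. Of 5 blood markers 2 passed with higher values in females and 1 with higher values in males, with sums from 223 to 754 in female and from 209 to 436 in male arrays. Of 5 sperm markers 2 passed in each direction. PRM1 and TNP1, which package sperm DNA, were 3.32-fold and 1.84-fold higher in females (1.73 and 0.88 log2, adjusted p = 1e-07 and 0.000188 in limma), wider than the sex difference of any member. ODF2, of the sperm tail, and SPA17 were higher in males (-0.25 and -0.28), and the sums ran from 917 to 1063 in female and from 934 to 1141 in male arrays. CYP19A1 of the granulosa list and HBB of the blood list differed by 0.56 and 0.81, and CD68 by -0.43. The dimmer probe sets of CYP19A1 differed by -0.04, -0.09 and -0.13 and did not pass (adjusted p = 0.795, 0.464 and 0.302). CYP19A1 also lost its call when its probe sets were averaged. In the dimmer probe sets of HBB the differences were 0.71, 0.15 and 0.05 (adjusted p = 0.0277, 0.265 and 0.736). The part of all these markers in the differences of the members was not tested.

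Between bulls, a difference cannot be told apart from a production or scan batch. MDM2 differed between bulls 3 and 1, BAK1 and BCL2L1 between bulls 3 and 2, and no other member passed. The means of MDM2 were 3.83 ± 0.28, 3.60 ± 0.19 and 3.37 ± 0.23 in bulls 1, 2 and 3 (SD, n = 6 arrays), and bull 3 minus bull 1 was -0.46 log2 (SE 0.10, 95% interval -0.66 to -0.25, adjusted p = 0.0166 in limma). Both steps between neighbouring bulls, -0.23 and -0.22, did not pass. MDM2 was 1 of 11 probe sets in that comparison, where 3.53% of all passed. Of the cell type markers, SOX2 of the inner cell mass list passed for bull 3 minus 1 (0.44 log2, adjusted p = 0.0283 in limma). CYP19A1 of the granulosa list passed for bull 2 minus 1 (-0.49, adjusted p = 0.03) and bull 3 minus 1 (-0.4, adjusted p = 0.0437). DCN of that list passed for bull 2 minus 1 (0.84, adjusted p = 0.00383) and bull 3 minus 2 (-0.66, adjusted p = 0.0114). The part of these markers in the bull differences of the members was not tested.

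BAK1 had means of 8.45 ± 0.21, 8.24 ± 0.12 and 8.62 ± 0.19 in bulls 1, 2 and 3. Bull 3 exceeded bull 2 by 0.38 log2 (SE 0.08, 95% interval 0.22 to 0.54, adjusted p = 0.0114 in limma), or 1.30-fold. BCL2L1 moved the other way, with means of 7.03 ± 0.16, 7.15 ± 0.11 and 6.79 ± 0.21, and bull 3 minus bull 2 was -0.36 log2 (SE 0.10, 95% interval -0.56 to -0.16, adjusted p = 0.0467). These were 2 of 11 probe sets, where 3.74% of all passed. Bull 2 minus bull 1 gave 0 of 11 in limma, where 1.52% passed. At an unadjusted p under 0.05 it was 4 of 11, and 4277 of all 24016. BAX stood at 10.03 ± 0.15, 9.83 ± 0.03 and 9.78 ± 0.14, and CDKN1A, MCL1 and every BCL2 probe set also did not pass in any pair of bulls.

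An index of RNA integrity, the log2 signal of the 5′ less that of the 3′ probe sets averaged over 3 control transcripts, moved with the bulls. It ran from -0.44 to 0.45 in bull 1, from -0.38 to -0.13 in bull 2 and from -1.27 to -0.36 in bull 3. With this index as a covariate the 3 differences between bulls were -0.34 for MDM2 (adjusted p = 0.80), 0.44 for BAK1 (adjusted p = 0.0539) and -0.18 for BCL2L1 (adjusted p = 0.464), and none passed. The index averaged -0.35 in each sex, and the 5 sex calls of the members were kept with it as a covariate. The BCL2L1 call was also lost in 13 of 18 fits without 1 array (adjusted p up to 0.136), and without the third male array of bull 3, at 6.55, the difference was -0.29 (adjusted p = 0.118).

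For each member called for sex, the 3 genes whose log2 values ran most alike over the 18 arrays were sought among 6348 brighter genes. This is a description, since the arrays of 1 sex share differences at many genes. CDKN1A ran most like TREX1, a DNA exonuclease of the cytosol (Pearson r = 0.949, Spearman rho = 0.895), then IGFBP6, an insulin-like growth factor binding protein (r = 0.947), and TUBA4A, an alpha tubulin (r = 0.939). Their deviations from the 6 group means correlated with those of CDKN1A at 0.767, 0.698 and 0.743. For the genes picked for the other members these correlations ran from 0.55 to 0.894. All were picked on the same 18 values, so the deviations add no separate evidence. These 3 genes were themselves higher in females, by 0.39, 0.83 and 1.04 log2. MDM2 ran most like METTL1, TMEM179B and ENSA (r = 0.893, 0.892 and 0.874). BAK1 ran most like DRG2, AP5B1 and MAP3K11 (r = 0.904, 0.883 and 0.873), of which none passed for sex. The brightest BCL2 probe set ran most like CHCHD4, SLC25A26 and MUTYH (r = 0.899, 0.884 and 0.882), and MCL1 most like TANGO2, IGF2BP3 and MICU2 (r = 0.923, 0.906 and 0.902).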

How the data were processed

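From 50 ng of total RNA per pool, amplified RNA was made and put on Affymetrix bovine arrays (labels' protocols). The authors deposited log2 values per probe set. RMA and Partek 6.4 appear in the submitters' processing notes, which give them no role, and that the scale is log2 was judged from the range, 1.89 to 14.15. Scan dates were not used here. Control probe sets (112) were left out. GEO's platform annotation gave 1 gene for 13292 of 24016 probe sets, several for 86 and none for 10638, and for 13263 the symbol was brought up to date through its gene number with the ARS-UCD2.0 gene table.

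Means of the 6 groups were estimated with limma 3.58.1 (R 4.3.3) on 12 residual degrees of freedom, and p-values were adjusted by Benjamini-Hochberg over all tested probe sets at a threshold of 0.05. Every p-value called adjusted comes from this fit or a named alternative of it. Intervals (95%) use the moderated standard errors. The fit was tested on simulated data. Members and lists were chosen with earlier results of these data known. The text names all members, up to 4 called genes per list with the smallest p, and the 3 genes most like each called member. Genes of a list are represented by their brightest probe set. Arrays of wide spread are the 4 whose values, relative to each probe set's median, had an interquartile range over 0.25 log2. No 2 arrays held the same values. The closing paragraphs give the alternatives, and figures were drawn with matplotlib 3.10.9.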

Additional observations from a re-analysis of the deposited data

Results flagged for a closer look

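Among 55 sets of 6 or 9 arrays (each probe set of the members, by sex and by bull), 3 held an array far from the others, and chance flags about 1 in 20. Female bull 1 replicate 3 read 6.23 in the third brightest BCL2 probe set and 6.30 in the fourth, each above the other 8 female arrays. Male bull 3 replicate 3 read 6.55 for BCL2L1, below the other 8 male arrays. Both arrays are among the 4 of wide spread.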

How the results depend on the processing

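Of 4613 values under an alternative, none that passed changed its sign, 4137 kept their side of the threshold or their size, 253 no longer passed, 19 newly passed and 204 counts or values moved, with the cause not tested. The member calls for sex, 2 higher in females and 3 in males, became 1 higher in females with the replicate block, without bull 1, without bull 3 and with bull as the replicate (2 or 1 without 1 array), and 0 higher in males without bull 1 and without bull 2, 1 with bull as the replicate, and 2 or 3 without 1 array. CDKN1A kept its call in all 34 alternatives (adjusted p up to 0.00395). MDM2 at a dim level could not be tested among the brighter 50% of probe sets. Over all probe sets, 3743 calls for sex became 2044 without bull 2, 2182 without bull 3, 2096 after averaging the probe sets of each gene and 2222 with 1 probe set per gene (fewer features tested), and 3175 to 3983 without 1 array. Within bulls 1, 2 and 3 the calls were 1008, 752 and 1004, and 1740, 1799 and 3144 with array weights. The replicate block gave 629 and 618 in bulls 1 and 3, the arrays of the bull alone 290 and 596, and leaving out the arrays of wide spread 1130 and 1545 in bulls 2 and 3. Without 1 array the counts ran from 625 to 1240, 422 to 956 and 465 to 1317. Bull 2 minus 1 called 364 probe sets, 569 among the brighter 50%, 1161 with array weights, 228 without arrays of wide spread, and 133 to 607 without 1 array. Bull 3 minus 1 called 848, then 459 without moderation, 2045 with array weights, 466 without arrays of wide spread, 12 with the 5′ to 3′ index, and 271 to 1594 without 1 array. Bull 3 minus 2 called 897, then 555 without moderation, 2693 with array weights, 143 with the 5′ to 3′ index, and 384 to 1337 without 1 array. Same-numbered female and male arrays of a bull do not pair (correlations of their deviations from -0.181 to 0.103). The replicate block gave 2977 calls for sex. With it, of the members, BAK1 and MCL1 did not pass for sex (adjusted p = 0.0561 and 0.109), nor did CDKN1A in bull 3 (0.0721), the brightest BCL2 probe set in bull 1 (0.126) and BCL2L1 between bulls 3 and 2 (0.0685), while MDM2 in bull 1 passed (0.0437).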

Other observations

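Other genes of the pathway differed between bulls, and those named here were chosen after their values were seen. RCHY1 and COP1, both ubiquitin ligases of p53, were lower in bull 3 than in bull 2 (-0.35 and -0.60 log2, adjusted p = 0.0263 and 0.0203 in limma). COP1 was also lower in bull 3 than in bull 1 (-0.56, adjusted p = 0.0301). BNIP3, a BCL2 family receptor for the removal of mitochondria, was higher in bull 2 than in bull 1 (0.47, adjusted p = 0.0188) and lower in bull 3 than in bull 2 (-0.43, adjusted p = 0.0176). BOK, a BAX-like effector, was higher in bull 2 than in bull 1 (0.39, adjusted p = 0.022), and bull 3 minus bull 1 (0.30, adjusted p = 0.0459) lost its call in 19 of 27 alternatives. BAG3 was lower in bulls 2 and 3 than in bull 1 (-0.40 and -0.34, adjusted p = 0.0374 and 0.0493, lost in 14 and 20 of 27). YWHAZ, a 14-3-3 protein, was lower in bull 3 than in bull 2 (-0.42, adjusted p = 0.0298, lost in 9 of 27). VDAC1, a channel of the outer mitochondrial membrane, was lower in bull 3 than in bull 1 (-0.42, adjusted p = 0.00562). Once the RNA integrity index was a covariate, the differences against bull 3 did not pass (RCHY1 -0.33, COP1 -0.35 and -0.22, BNIP3 -0.41, BOK 0.20, BAG3 -0.15, YWHAZ -0.22 and VDAC1 -0.35). Of those of bull 2 minus bull 1, BAG3 did not (-0.35, adjusted p = 0.0605) and the others did (BNIP3 0.48, adjusted p = 0.0285, and BOK 0.36, adjusted p = 0.0374). Without female bull 2 replicate 1 the calls of BNIP3, BOK and BAG3 for bull 2 minus bull 1 were lost. So were those of COP1, RCHY1, BNIP3 and YWHAZ between bulls 3 and 2, and of BOK and BAG3 for bull 3 minus bull 1. In 18 fits without 1 array, RCHY1 lost its call in 7, COP1 in 3 against bull 2 and in 8 against bull 1, BNIP3 in 1 for bull 3 minus bull 2 and in 2 for bull 2 minus bull 1, BOK in 2 for bull 2 minus bull 1 and VDAC1 in 0.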
